A study of Mus musculus with 6 samples.

Results

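Hox genes encode homeodomain transcription factors that lie in 4 clusters of the mouse genome, Hoxa on chromosome 6, Hoxb on chromosome 11, Hoxc on chromosome 15 and Hoxd on chromosome 2. They were compared here between whole embryonic kidneys labelled Foxd1 null and kidneys of wild type littermates. Members were all genes whose symbol is Hox, a cluster letter from a to d and a number, each read from the array row that carries that symbol alone. In all, 37 such genes were measured among 19938 genes: 10 of Hoxa, and 9 each of Hoxb, Hoxc and Hoxd. Hoxb8 stood only on a row that also names Hoxb7, so it was not tested with them.

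Expression was measured on 6 Affymetrix gene arrays at E14.5, mid-gestation in the mouse. Of these, 3 arrays held pools labelled Foxd1 null and 3 held wild type pools, from 3 litters of a Foxd1+/- intercross. Every pool contained 2 kidney pairs taken from different litters, so that the pools share litters, which the labels do not name per pool. The labels do not describe the null allele or the strain, and embryos were not sexed. Foxd1 encodes a forkhead transcription factor of the renal stromal progenitors. The Foxd1 row itself had log2 values of 10.05, 9.77 and 9.71 in the null-labelled pools, against 9.40, 9.55 and 9.69 in the wild type pools (difference 0.30, SE 0.11, adjusted p = 0.246). It was therefore not lower in the pools labelled null, and no source used here says whether it lies outside the deleted part. All directions below are between pools as labelled.

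Within a cluster, Hox genes are numbered by paralog group, and genes of the same number in different clusters descend from the same ancestral gene. Low-numbered genes lie at the 3′ end of a cluster and are used first and furthest forward along the body axis, and high-numbered genes lie at the 5′ end and act in posterior structures. In the developing kidney the group 11 paralogs act with Eya1 and Pax2 in the nephron-forming mesenchyme to drive Six2 and Gdnf. Group 10 paralogs are needed in the stroma, the compartment in which Foxd1 is made.

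The clusters also contain short regulatory RNAs and, in places, promoter elements through which Hox proteins act on Hox genes. The mature 5′ products of the miR-10 and miR-196 genes and the 3′ product of Mir615, all encoded within Hox clusters, are shown because their array rows are compared below with those of the surrounding genes. Sequences are from RefSeq, build GRCm38.p6, written 5′ to 3′ with the seed (bases 2 to 8) in capitals.
miR-10a-5p, Hoxb cluster, chr11:96317186-96317208, + strand: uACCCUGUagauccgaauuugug
miR-10b-5p, Hoxd cluster, chr2:74726074-74726096, + strand: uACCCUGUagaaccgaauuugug
miR-196a-5p, Hoxb copy at chr11:96265187-96265208, + strand: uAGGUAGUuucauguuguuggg
miR-196b-5p, Hoxa cluster, chr6:52230129-52230150, - strand: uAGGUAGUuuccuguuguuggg
miR-615-3p, Hoxc cluster, chr15:103014969-103014990, + strand: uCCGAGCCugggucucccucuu
Both miR-10 products share the seed ACCCUGU and both miR-196 products share AGGUAGU, while miR-615-3p has its own. A second copy of miR-196a-5p, at chr15:102973365-102973386 in the Hoxc cluster, has the same sequence.

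None of the 37 Hox genes passed the threshold, an adjusted p under 0.05 over all 19938 genes in limma, where 2.4% of all genes did (1.64% higher and 0.767% lower in the null-labelled pools). The lowest adjusted p was 0.0684, for Hoxb2. At an unadjusted p under 0.05 there were 4 Hox genes, against 14.1% of all genes: Hoxa13 with a higher mean in the null-labelled pools (8.68% of all genes) and Hoxb2, Hoxb9 and Hoxd8 with a lower one (5.42% of all genes). Differences, given throughout as null minus wild type in log2 units, ran from -0.41 for Hoxb2 to 0.27 for Hoxa13, with a median of -0.05 over the 37 genes and 0.01 over all genes. The median absolute difference was 0.07 among Hox genes and 0.08 among all genes. In whole kidneys, a change in the number of cells that make a transcript and a change in its amount per cell cannot be told apart.

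A p above the threshold does not show that levels were equal, and the intervals say how large a difference these pools leave room for. The 95% interval of the difference lay within 1.5-fold in either direction for 36 of 37 Hox genes (97.3%) and for 94.5% of all genes. It lay within 1.25-fold for 28 Hox genes (75.7%), against 64.6% of all genes. Hoxb2 was the exception at 1.5-fold, with an interval of -0.63 to -0.19. Standard errors ran from 0.07 to 0.13 among the Hox genes, with a median of 0.08 against 0.09 over all genes. These intervals are for each gene on its own.

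**Figure D1:**
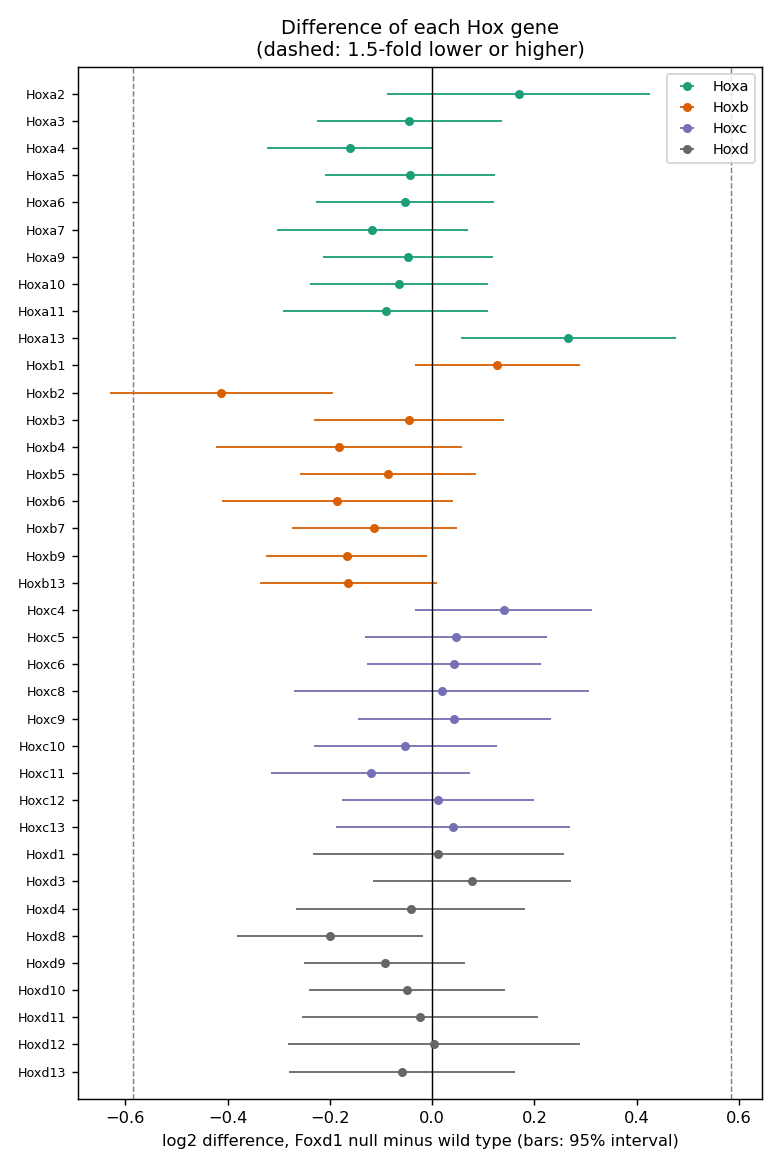
Log2 difference (x axis, Foxd1 null minus wild type) of each of the 37 measured Hox genes (y axis, ordered by cluster and paralog number), n = 3 pools per genotype. Points are differences of means, bars are 95% intervals from limma and dashed lines mark 1.5-fold; only the interval of Hoxb2, -0.63 to -0.19, crosses a dashed line.

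Groups that did not overlap were found for 10 of the 37 genes (27.0%, against 19.5% of all genes). Hoxa13, Hoxb1 and Hoxc4 had all null-labelled pools above all wild type pools, where 11.5% of all genes did. For Hoxa4, Hoxb2, Hoxb7, Hoxb9, Hoxb13, Hoxd8 and Hoxd9 all null-labelled pools lay below, where 8.04% of all genes did. Of these 10 genes, 5 belong to Hoxb. By sign alone, 24 of the 37 differences were below 0 (64.9%), against 45.5% of all genes.

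**Figure D2:**
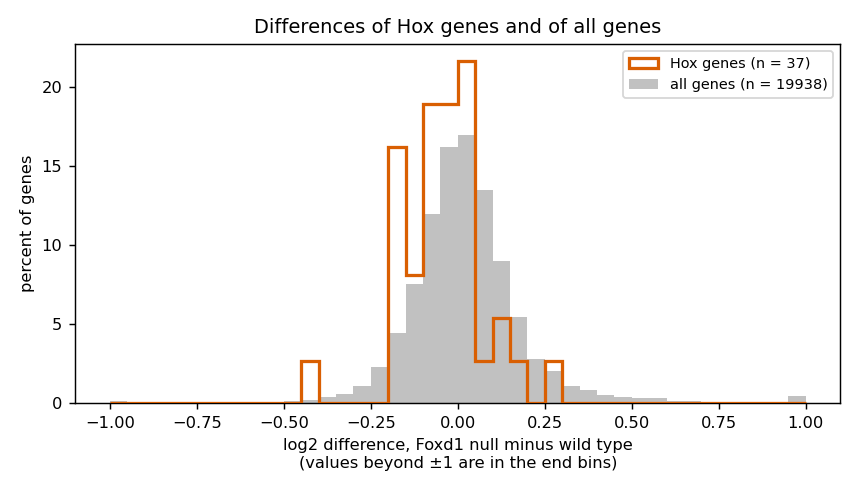
Distribution of the log2 difference (x axis, Foxd1 null minus wild type) as a percent of genes (y axis) for the 37 Hox genes (outline) and all 19938 genes (filled grey). The Hox differences lie between -0.41 and 0.27, with Hoxb2 apart on the left; values of all genes beyond 1 in either direction are collected in the end bins.

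Among the anterior and central groups, Hoxb2 showed the largest difference of the 37 genes. The row that names both Hoxb8 and Hoxb7, kept out of the 37, differed by -0.43 (SE 0.12) and is described at the end. Hoxb2 encodes a group 2 paralog best known for patterning the hindbrain. Its log2 values were 7.30, 7.21 and 7.12 in the null-labelled pools and 7.49, 7.81 and 7.55 in the wild type pools. The groups did not overlap, with the lowest wild type pool 0.19 above the highest null-labelled pool. It averaged 7.21 ± 0.09 in the null-labelled and 7.62 ± 0.17 in the wild type pools (SD over 3 pools each). The null-labelled mean was thus 0.75-fold that of wild type, a log2 difference of -0.41 (SE 0.10, adjusted p = 0.0684). This was the only Hox gene called under any alternative processing: it passed when the lowest 25% of rows were left out (adjusted p = 0.0446) and under a robust variance model with an intensity trend (adjusted p = 0.0318). Over all 15 alternatives its adjusted p lay between 0.0318 and 0.214.

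Hoxb1, the direct 3′ neighbour of Hoxb2 and a group 1 paralog of hindbrain patterning, pointed the other way. Its values were 7.64, 7.71 and 7.75 in the null-labelled pools and 7.57, 7.52 and 7.62 in the wild type pools, again without overlap but separated by 0.02. The difference was 0.13 (SE 0.07, adjusted p = 0.488), the only value above 0 in its cluster. The promoter of Hoxb1 is shown because it is known in the mouse for repeats through which Hoxb1 protein, bound together with Pbx, acts on its own gene. It covers the 250 bases before the annotated start in GRCm38.p6 (RefSeq), + strand, with matches to GATNGANG on either strand in capitals.
Hoxb1 promoter, chr11:96365508-96365757: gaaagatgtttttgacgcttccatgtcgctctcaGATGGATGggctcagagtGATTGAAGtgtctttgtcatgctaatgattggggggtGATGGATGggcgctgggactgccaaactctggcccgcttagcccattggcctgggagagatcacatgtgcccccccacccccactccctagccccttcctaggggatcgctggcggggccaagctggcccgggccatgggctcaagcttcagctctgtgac
The window held 3 matches that do not overlap each other. Among Hox promoters with an entry, 23 windows of 21 genes (300 bases each, 250 before and 50 after the start), 2 windows held at least 1 match, those of Hoxb1 and Hoxa9 (8.7%), and 8.66% of all 32851 promoter windows did. Hoxb2 had no entry. The forkhead core GTAAACA, searched on both strands, was found in 0 of the 23 Hox windows and in 3.65% of all windows. Hox windows had a median GC content of 58.0% and a median of 15 CpG dinucleotides, against 52.7% and 7 over all windows. These matches describe the letters only.

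Hoxb4 and Hoxb6, central genes of the same cluster, had the next lowest differences in it. Hoxb4 stood at 8.72, 8.37 and 8.34 in the null-labelled pools and at 8.57, 8.65 and 8.75 in the wild type pools, and Hoxb6 at 9.26, 8.94 and 8.97 in the null-labelled pools against 9.12, 9.29 and 9.31 in the wild type pools. In both genes null-labelled pool 1 lay among the wild type values and pools 2 and 3 lay below all of them. The differences were -0.18 (SE 0.11, adjusted p = 0.51) and -0.19 (SE 0.10, adjusted p = 0.472). Hoxb7, a gene long used to drive expression in the ureteric bud, had values of 7.79, 7.74 and 7.88 in the null-labelled pools and 7.89, 7.94 and 7.93 in the wild type pools, a gap of 0.01 between the groups (difference -0.11, SE 0.07, adjusted p = 0.553). Hoxb3 and Hoxb5 differed by -0.04 and -0.09, with overlapping groups.

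In Hoxa, the 3 largest differences were those of Hoxa13, Hoxa2 and Hoxa4. Hoxa13, a group 13 gene of limb and genital development, had values of 5.81, 5.94 and 5.87 in the null-labelled pools and 5.68, 5.42 and 5.72 in the wild type pools (difference 0.27, SE 0.09, adjusted p = 0.227). The groups were separated, but all 6 values lie in a range that is mostly background on this array, as given below. Hoxa2, which patterns the hindbrain and the second branchial arch, had 7.61, 7.24 and 7.36 in the null-labelled pools against 7.15, 7.13 and 7.43 in the wild type pools. These overlapped, with null-labelled pool 1 highest of all 6 (difference 0.17, SE 0.11, adjusted p = 0.581). Hoxa4, a gene of the cervical axis, had 8.39, 8.30 and 8.28 in the null-labelled pools against 8.49, 8.44 and 8.53 in the wild type pools, without overlap (difference -0.16, SE 0.07, adjusted p = 0.355). Hoxa3, Hoxa5, Hoxa6 and Hoxa7 differed by -0.04 to -0.12, with overlapping groups.

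Hoxc was the cluster with the fewest values below 0. Hoxc4 had values of 7.87, 7.94 and 7.96 in the null-labelled pools and 7.68, 7.86 and 7.82 in the wild type pools, a difference of 0.14 (SE 0.08, adjusted p = 0.477) with groups separated by 0.02. Hoxc5, Hoxc6 and Hoxc8 differed by 0.02 to 0.05 with overlapping groups. Hoxc8, a gene of the thoracic axis, had 8.98, 8.75 and 8.79 in the null-labelled pools, all inside the wild type values of 8.56, 8.81 and 9.10, the widest wild type spread of the family. In Hoxd, Hoxd8 had the largest difference, with 8.93, 8.72 and 8.77 in the null-labelled pools and 9.03, 9.06 and 8.93 in the wild type pools. The groups touched without overlapping (difference -0.20, SE 0.08, adjusted p = 0.299). Hoxd3 stood at 7.81, 7.57 and 7.56 in the null-labelled pools against 7.62, 7.53 and 7.56 in the wild type pools, overlapping (difference 0.08, SE 0.09, adjusted p = 0.769), and Hoxd4 and Hoxd1 differed by -0.04 and 0.01.

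**Figure D3:**
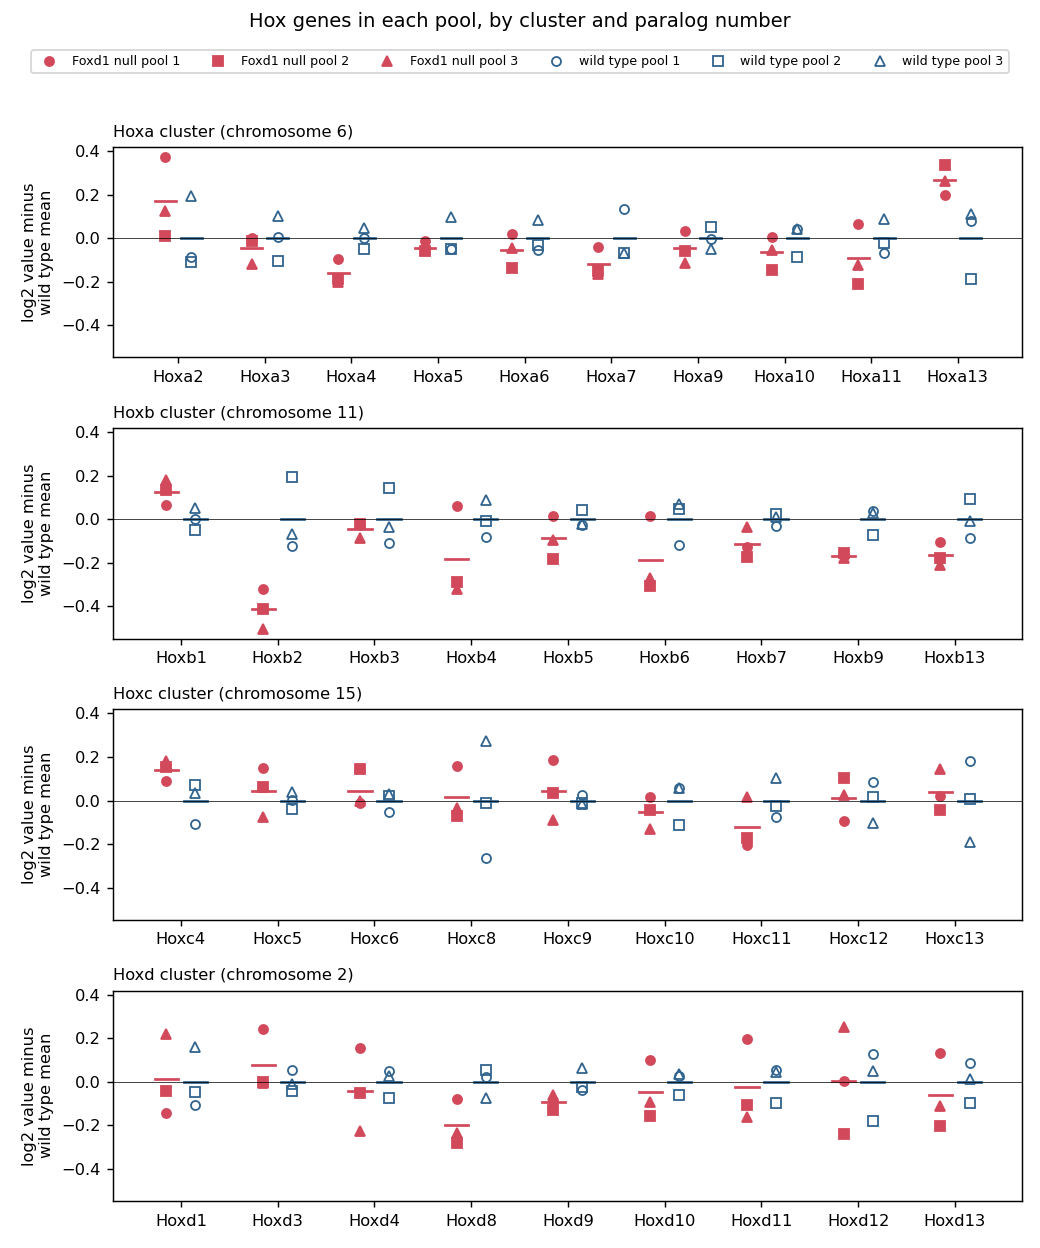
Log2 value of each Hox gene in each pool minus that gene's wild type mean (y axis), by cluster (panels) and paralog number (x axis). Filled red symbols are the 3 Foxd1 null pools and open blue symbols the 3 wild type pools, with bars at the group means; Hoxb2 has the largest gap between groups, and null pool 1 (filled circles) is often the highest null pool.

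Posterior paralogs of groups 9, 10 and 11, which include the genes with known kidney roles, showed no difference past the threshold. Of the 10 measured, 9 had a mean below that of wild type (90%, against 64.9% of all Hox genes and 45.5% of all genes), with a median difference of -0.06. These 9 include Hoxc11, in the background range, and Hoxd10 and Hoxd11, whose signs turned when single pools were left out. All 10 intervals lay within 1.5-fold, and 9 lay within 1.25-fold. The adjusted p-values ranged from 0.316 to 0.952.

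Group 11 acts in the mesenchyme that forms nephrons. Hoxa11 had values of 8.73, 8.46 and 8.55 in the null-labelled pools and 8.60, 8.65 and 8.76 in the wild type pools (difference -0.09, SE 0.09, adjusted p = 0.731). Hoxd11 had 8.88, 8.58 and 8.52 in the null-labelled pools against 8.74, 8.59 and 8.73 in the wild type pools (difference -0.02, SE 0.10, adjusted p = 0.952). In both, the groups overlapped and null-labelled pool 1 was the highest or nearly the highest of the 6. Hoxc11 stood at 4.80, 4.83 and 5.02 in the null-labelled pools and at 4.93, 4.98 and 5.11 in the wild type pools, all in the background range (difference -0.12, SE 0.09, adjusted p = 0.611).

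Group 10 is needed in renal stroma. Hoxd10 had values of 11.48, 11.22 and 11.28 in the null-labelled pools and 11.40, 11.31 and 11.41 in the wild type pools, a difference of -0.05 (SE 0.09, adjusted p = 0.865) with overlapping groups and an interval of -0.24 to 0.14. Hoxa10 had 8.63, 8.48 and 8.58 in the null-labelled pools against 8.67, 8.54 and 8.67 in the wild type pools (difference -0.07, SE 0.08, adjusted p = 0.786). Hoxc10 had 7.85, 7.79 and 7.70 in the null-labelled pools against 7.89, 7.72 and 7.89 in the wild type pools (difference -0.05, SE 0.08, adjusted p = 0.839). These stromal paralogs thus overlapped between genotypes. Beside them, 5 of 14 stroma marker genes rose in the null-labelled pools (Dcn by 1.36, Tbx18 by 0.89, Col1a1 by 0.71, Col3a1 by 0.68 and Pdgfra by 0.44), and 2 fell (Aldh1a2 by 0.77 and Ntn1 by 0.36), with a median difference of 0.28. Among all 19938 genes, 1.64% were called higher and 0.767% lower. The count of lower stroma markers was 1 without any 1 pool other than null-labelled pool 1, and a test over all rows left 2 higher and 0 lower. The linear values of that list summed to 11973 to 12826 in the null-labelled pools and 9426 to 9972 in the wild type pools. Dcn weighs heavily in these sums, with mean log2 values of 11.77 in the null-labelled and 10.41 in the wild type pools. Of the 14 differences, 6 were below 0, so the sums do not describe the list as a whole.

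Group 9 genes act redundantly in limb and trunk. Hoxb9 had the tightest values of the family in the null-labelled pools, 7.66, 7.67 and 7.65, against 7.87, 7.76 and 7.86 in the wild type pools. The groups did not overlap (difference -0.17, SE 0.07, adjusted p = 0.316). Hoxd9 had 8.11, 8.07 and 8.14 in the null-labelled pools against 8.16, 8.17 and 8.26 in the wild type pools, separated by 0.02 (difference -0.09, SE 0.07, adjusted p = 0.631). The other 2 overlapped. Hoxa9 had 8.40, 8.31 and 8.26 in the null-labelled pools against 8.37, 8.43 and 8.32 in the wild type pools (difference -0.05, SE 0.07, adjusted p = 0.848). Hoxc9 had 9.35, 9.19 and 9.07 in the null-labelled pools against 9.19, 9.15 and 9.15 in the wild type pools (difference 0.04, SE 0.08, adjusted p = 0.881).

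Groups 12 and 13 belong to the terminal axis, the distal limb and the urogenital outlet. All 6 measured members (Hoxa13, Hoxb13, Hoxc12, Hoxc13, Hoxd12 and Hoxd13), together with Hoxc11 and Hoxd1, lay below 7 on the log2 scale in every pool, 8 rows in all. In the authors' deposited table, which lists no Hox row, all 19 group values below a level of 6 and 53 of 57 values from 6 to 7 carry an expressed p-value of 0.05 or more, against 49 of 165 from 7 to 8 and 10 of 328 from 8 to 9. The pools of Hoxb2 all lie in the band from 7 to 8. Such levels depend on each row's own probes, so that this is a guide to background and not a test of these 8 genes. Hoxb13 differed by -0.16 with groups that did not overlap (SE 0.08, adjusted p = 0.384), and the others apart from Hoxa13 and Hoxc11 differed by -0.06 to 0.04. Among the 29 rows that reached 7 in at least 1 pool, 21 differences were below 0 and the median was -0.05.

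By cluster, the counts of differences below 0 were 8 of 10 for Hoxa, 8 of 9 for Hoxb, 2 of 9 for Hoxc and 6 of 9 for Hoxd. The medians were -0.05, -0.16, 0.04 and -0.04 in the same order, and the difference between clusters was not tested. Hoxb was the lowest in every processing alternative, with medians from -0.20 to -0.12. The value of Hoxc depended on the pools and the scaling. It was -0.01 with 5 of 9 below 0 without null-labelled pool 1, and 0.01 with 4 of 9 below 0 after median centring. Hoxd moved to 0.01 with 3 of 9 below 0 without null-labelled pool 2. By paralog number, every measured gene of groups 7 (2 genes), 10 (3 genes) and 11 (3 genes) had a value below 0, and the other groups were mixed or, for groups 1 and 12 (2 genes each), above 0.

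The null-labelled pools were not alike in their Hox genes. Pool 1 was the highest null-labelled pool for 24 of 37 Hox genes (64.9%), against 30.0% of all genes. It was so for 9 of 10 Hoxa genes, 6 of 9 Hoxd genes, 5 of 9 Hoxb genes and 4 of 9 Hoxc genes. The median deviation from the 6-pool mean over the Hox genes was 0.02 in null-labelled pool 1, -0.08 in pool 2 and -0.06 in pool 3. The same median was 0.02, -0.01 and 0.06 across the wild type set. Pool 1 therefore lay within the range of the wild type pools, and pools 2 and 3 below it. Over all genes the same medians lay between -0.02 and 0.04. Without null-labelled pool 1 the median Hox difference was -0.09 and still 0 Hox genes passed.

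**Figure D4:**
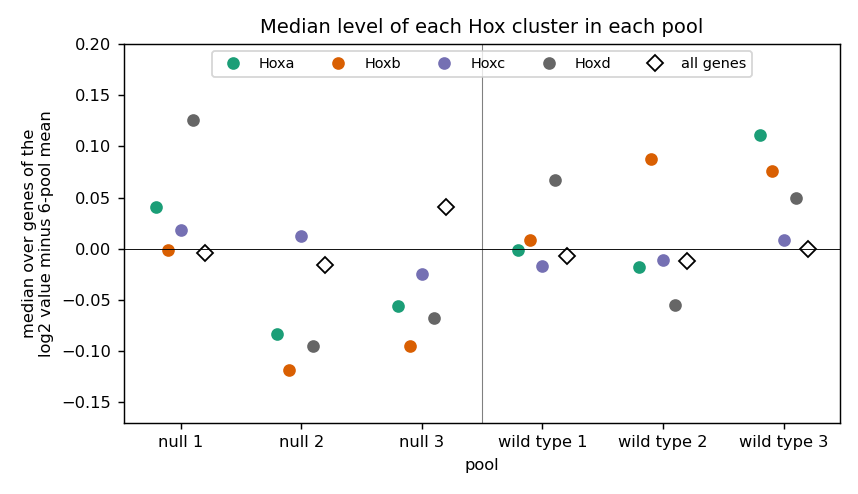
Median over the genes of each Hox cluster of the log2 value minus the 6-pool mean (y axis) in each pool (x axis, Foxd1 null pools left of wild type pools), with all genes as open diamonds. Hoxa, Hoxb and Hoxd lie below 0 in null pools 2 and 3 but not all in null pool 1, and Hoxc stays within 0.03 of 0 in every pool.

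Markers of tissues that border the kidney varied between pools. The linear values of 15 skeletal muscle markers came to totals of 8846, 7152 and 4471 in the Foxd1 null set, pools 1 to 3, against 2053, 3911 and 5347 in the wild type set. Those of 14 sympathetic neuron markers totalled 2022, 6211 and 4611 in the Foxd1 null set, against 1738, 2115 and 2234 in the wild type set. Of these lists 3 muscle, 2 neuron, 1 adrenal and 3 liver rows were below 7 in every pool, and the adrenal enzyme genes Cyp11a1, Cyp11b1 and Hsd3b1 were below 7 in every pool but null-labelled pool 3. Adrenal cortex (9 genes) and liver (9 genes) summed to 5252 and 6453 in null-labelled pool 3, against at most 2157 and 1355 in any other pool. Tnnt3 of skeletal muscle and Elavl4 of neurons passed the threshold, 1 gene of each list, and 0 genes of the adrenal and liver lists did. Both were higher, as were 1.64% of all genes. The muscle count was 2 without null-labelled pool 3 and 0 without any other 1 pool. Without null-labelled pool 1, 9 neuron markers and 1 liver marker were called higher, and without any other 1 pool 0 of either were. The calls over all genes moved too. They were 326 higher with all pools, 572 without null-labelled pool 1 and 127 to 207 without any other 1 pool. Medians of the differences were 0.87, 0.74, 0.39 and 0.55 for muscle, neuron, adrenal and liver. Gonad and genital ridge markers totalled 1078 to 1200 in the Foxd1 null set, against 1087 to 1248 in the wild type set, with a median difference of 0.07 and 1 of 9 genes lower (Emx2, against 0.767% of all genes). That count was 0 without any 1 pool other than null-labelled pool 1. A test over all rows called 0 genes of the muscle, neuron, adrenal, liver and gonad lists. The part of these tissues in the Hox values was not tested.

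Within the kidney, early nephron markers, made by cells derived from the Hox11-positive mesenchyme, fell in 5 of 10 genes (Lhx1, Pax8, Osr2, Cdh6 and Sim1), with 0 higher and a median of -0.58. Over all genes, 0.767% were called lower and 1.64% higher. Between 5 and 6 early nephron markers fell when any 1 pool was left out, and 3 fell in a test over all rows. That test called 0 nephron progenitor, ureteric or endothelial markers. Nephron progenitor markers had 1 higher (Osr1) and 1 lower (Cited1) of 11, with a median of -0.01. The count of lower genes was 2 without null-labelled pool 1, and 0 without null-labelled pool 2 or 3 or wild type pool 1 or 3. Ureteric markers had 3 of 13 lower (Cdh1, Emx2 and Tfap2b), 0 higher and a median of -0.03. The lower count was 1 when null-labelled pool 2 or wild type pool 3 was left out, and 0 when the pool left out was null-labelled pool 3 or wild type pool 1 or 2. Endothelial markers had 3 of 10 higher (Pecam1, Kdr and Tek), 0 lower and a median of 0.35. That count was 5 without null-labelled pool 1, 1 without wild type pool 1 and 0 without any other 1 pool. Over all genes, 171 were called lower without null-labelled pool 1 and 64 to 140 without any other 1 pool. The higher counts over all genes are given above. How the makeup of cells bears on each Hox row was not tested.

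Hox proteins bind DNA with TALE homeodomain partners of the Meis, Pbx and Pknox families. Of 8 such genes measured, 0 passed, with a median difference of 0.06. Meis1, itself a stromal gene in the kidney, came nearest. Its values were 10.55, 10.63 and 10.76 in the null-labelled pools and 10.29, 10.37 and 10.33 in the wild type pools, without overlap (difference 0.31, SE 0.08, adjusted p = 0.08). Pknox2 had 7.59, 7.46 and 7.45 in the null-labelled pools against 7.27, 7.32 and 7.19 in the wild type pools, also without overlap (difference 0.24, SE 0.08, adjusted p = 0.179). Over the 15 alternatives, 0 to 1 genes of this list were called higher and 0 lower. Those that called 1 include an intensity trend, robust or not, and leaving out null-labelled pool 1.

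Genes that act with the group 11 paralogs in the mesenchyme moved in different directions. Of 9 measured, Osr1, an early regulator of kidney mesenchyme, rose by 0.84 (SE 0.12, adjusted p = 0.00703), and Wt1, a zinc finger factor of mesenchyme and podocytes, fell by 0.34 (SE 0.07, adjusted p = 0.0444). The other 7 did not pass. Among these 7, Sall1 had the lowest difference (-0.43, SE 0.10, adjusted p = 0.059), with groups that did not overlap. Six2, a direct target of the Hox11, Eya1 and Pax2 complex, stood at 8.89, 8.70 and 8.70 in the null-labelled pools and 9.28, 9.02 and 9.27 in the wild type pools (difference -0.43, SE 0.09, adjusted p = 0.0502). Eya1, the cofactor of that complex, stood at 10.81, 10.87 and 10.61 in the null-labelled pools against 10.52, 10.53 and 10.47 in the wild type pools (difference 0.25, SE 0.08, adjusted p = 0.198). Its partner Pax2 differed by -0.21 (SE 0.08, adjusted p = 0.264). Gdnf, the other target and the signal that induces the ureteric bud, differed by -0.12 (SE 0.09, adjusted p = 0.602) with overlapping groups. The median of the list was -0.12, and over all genes 1.64% were called higher and 0.767% lower. No gene of it was called lower without null-labelled pool 2 or 3 or wild type pool 1 or 3. Without null-labelled pool 1, 3 genes were called lower. The lower count was also 3 with the filter on low rows, an intensity trend, robust or not, and quantile normalization. It was 2 with array weights, the mean of a gene's rows and median centring, and 1 with a replicate block. A test over all rows called 0 genes of the list.

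Regulators of Hox transcription were measured too. Polycomb proteins keep Hox genes silent outside their domains, and 0 of 14 passed, with a median of -0.02; Bmi1 had the largest difference, -0.27 (SE 0.10, adjusted p = 0.268). The trithorax and MLL group keeps them active, and 0 of 9 passed, with a median of 0.00 and the largest difference in Wdr5, at -0.14 (SE 0.08, adjusted p = 0.515). Retinoic acid induces 3′ Hox genes in embryos. Of 17 genes of that pathway, Aldh1a2, a synthesising enzyme, fell by 0.77 (SE 0.10, adjusted p = 0.00473) and Aldh1a3, another such enzyme, rose by 0.37 (SE 0.07, adjusted p = 0.0331). The list median was 0.02, and over all genes 1.64% were called higher and 0.767% lower. Without any 1 pool other than null-labelled pool 3, 0 genes of the list were called higher. A test over all rows called 0 genes of this pathway in either direction. Homeobox relatives outside the clusters or at their 5′ ends (Cdx, Evx, Gsx, Gbx2, Mnx1 and Pdx1) gave 0 of 10 past the threshold, with a median of 0.06 and 9 of 10 below 7 in every pool. Their largest differences were 0.16 each for Gsx2 and Evx1.

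Non-coding genes inside the clusters gave 0 of 10 past the threshold and a median of 0.12, with 8 differences above 0. Haglr, antisense in the Hoxd cluster, had values of 9.04, 8.74 and 8.75 in the null-labelled pools and 8.66, 8.67 and 8.74 in the wild type pools (difference 0.15, SE 0.09, adjusted p = 0.527). Hoxaas2 of the Hoxa cluster had 7.36, 7.25 and 7.37 in the null-labelled pools against 7.15, 7.15 and 7.21 in the wild type pools (difference 0.16, SE 0.07, adjusted p = 0.365). In neither did the groups overlap, though those of Haglr were only 0.01 apart. Whether the array separates the strands of such overlapping transcripts is not stated. Hoxd3os1, antisense to Hoxd3, differed by 0.16 (SE 0.09, adjusted p = 0.494).

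Rows of the miRNA genes whose sequences are shown above differed by -0.04 to 0.23, with adjusted p from 0.626 to 0.939. Mir10b had the largest of these, with 4.55, 3.57 and 3.53 in the null-labelled pools against 3.55, 3.40 and 4.02 in the wild type pools, and Mir10a had 3.57, 3.40 and 3.47 in the null-labelled pools against 3.38, 3.19 and 3.60 in the wild type pools. Mir615 alone exceeded 7, with a difference of 0.06 (SE 0.08). A gene array reads the transcript over the locus, so these rows do not give the level of the mature miRNA.

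Protein-coding genes that flank the clusters gave 0 of 16 past the threshold and a median of 0.02. The largest differences were those of Skap1, beyond the Hoxb cluster, at -0.23 (SE 0.09, adjusted p = 0.287) and of Mtx2, beside Hoxd, at -0.21 (SE 0.08, adjusted p = 0.238). In both, all null-labelled pools lay below all wild type pools, which held for 3 of the 16 genes and 8.04% of all genes. The values of Skap1, 5.88 to 6.37, lie in the range that is mostly background.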

How the data were processed

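Per the labels' protocols, 50 ng of total RNA per pool was amplified to cDNA with NuGEN reagents and carried a biotin label. The array is an Affymetrix gene array by its platform annotation. The authors deposited log2 values, 1 column per pool; no source used here states how they were summarised and normalized. The log2 base was read from the values: over 488 shared probe sets their differences had a slope of 1.50 on the natural log medians of the authors' deposited table (1 over ln 2 is 1.44). That table's expressed p-values, deposited per group by the authors, served only as a guide to background, and it names no test or adjustment.

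Of 35556 rows, 21789 had 1 symbol in the platform annotation (1621 several, 12146 none). Each gene was read from the row with the highest mean over the 6 pools, giving 19938 genes; every Hox gene had 1 such row. Array medians lay between 6.98 and 7.06.

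The genotypes were compared with limma 3.58.1 (R 4.3.3; lmFit and eBayes, genotype only), with two-sided p adjusted by Benjamini-Hochberg over all genes and a threshold of 0.05. Adjusted p-values in the text are from this test unless an alternative is named beside them. No filter was applied. Tables and plots were made with Python 3.11.15, pandas 2.3.3, scipy 1.17.1 and matplotlib 3.10.9. On simulated data modelled on these 6 arrays and 19938 genes, 99 of 100 genes changed 2-fold and 83 of 100 changed 1.5-fold were recovered, with 6 false calls. The simulated noise was independent between genes and held no shifts shared by the genes of a pool. These figures therefore do not describe recovery in the presence of the pool differences given above. The number of arrays limits the precision, and an exact test of 3 against 3 pools cannot give a two-sided p under 0.1.

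The members and the 18 gene lists were chosen with earlier results of these data known. Values in each pool are given for groups 9, 10 and 11 and the 3 largest uncalled differences per cluster; of each list, members past the threshold are named, or otherwise up to 2 with the largest differences. Other genes named (Hoxb1, Hoxb3, Hoxb5, Hoxb7, Hoxb13, Hoxc8, Hoxd4 and Hoxd1 with values, Sall1, Six2, Eya1, Pax2, Gdnf, Hoxd3os1, Haglr, Hoxaas2, Mir10a, Mir615, Cyp11a1, Cyp11b1, Hsd3b1) were chosen after their values were seen. Alternatives were quantile normalization, median centring, a filter on the lowest 25% of rows, the mean of a gene's rows, other variance models, array weights, a replicate block, a test over all rows and leaving out each pool.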

Additional observations from a re-analysis of the deposited data

How the results depend on the processing

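Of 15 alternatives, 13 left 0 Hox genes past the threshold. With the lowest 25% of rows left out (32 Hox genes tested) and under the robust model with an intensity trend, 1 Hox gene, Hoxb2, was lower. No alternative called a Hox gene higher. The median Hox difference lay between -0.09 and -0.03. Over all genes, 326 were higher and 153 lower; a test over all rows gave 61 and 29, and leaving out a pool gave 127 to 572 higher and 64 to 171 lower. The share of calls that were higher was 68.1%, and 77.0% without null-labelled pool 1. The number of Hox genes at an unadjusted p under 0.05 was 1 to 6 over the alternatives.

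The sign was the same in every alternative for 21 of 37 Hox genes. After median centring and, second, after quantile normalization, 4 genes near 0 turned: Hoxc8 (-0.0129 and -0.0109), Hoxc12 (-0.0198 and -0.0093), Hoxd1 (-0.0196 and -0.0191), Hoxd12 (-0.027 and -0.025). When single pools were left out, signs turned within these ranges: Hoxa3 -0.0982 to 0.007, Hoxa5 -0.0685 to 0.0062, Hoxb3 -0.0988 to 0.0267, Hoxc5 -0.006 to 0.1058, Hoxc6 -0.0086 to 0.0708, Hoxc8 -0.1139 to 0.1556, Hoxc9 -0.0279 to 0.1095, Hoxc12 -0.0398 to 0.0639, Hoxc13 -0.0547 to 0.131, Hoxd1 -0.0926 to 0.0908, Hoxd3 -0.0039 to 0.1201, Hoxd4 -0.1399 to 0.0503, Hoxd10 -0.1242 to 0.0046, Hoxd11 -0.1345 to 0.0451, Hoxd12 -0.1185 to 0.1264 and Hoxd13 -0.1553 to 0.0123. The cause was not tested.

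The labels do not say whether the replicate numbers pair the pools. Deviations of same-numbered pools correlated at 0.125, 0.068 and 0.053 (each pool best with its own number, a hint from the data), and a replicate block gave 381 higher and 158 lower genes and 0 Hox genes, with an adjusted p of 0.0715 for Hoxb2.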

Other observations

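A row that names both Hoxb8 and Hoxb7 was kept out of the comparison because its RNA cannot be assigned to either gene. Its log2 values were 8.60, 8.42 and 8.32 in the null-labelled pools and 9.04, 8.68 and 8.91 in the wild type pools. All null-labelled pools lay below all wild type pools, with a difference of -0.43 (SE 0.12), close in size to that of Hoxb2. Tested over all 35556 rows with limma, it did not pass (adjusted p = 0.248), and Hoxb2 had an adjusted p of 0.214 in the same test. The row of Hoxb7 alone differed by -0.11.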
